A study of Mus musculus with 6 samples.

Results

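The Krüppel-like factor (KLF) genes described here were Klf2, Klf3, Klf4, Klf5, Klf6, Klf7, Klf9, Klf11, Klf13 and Klf15, 10 of the 55039 genes in the deposited tables. They were found by gene symbol, and all 10 had enough reads to be tested. RNA was sequenced from the epididymal white adipose tissue (eWAT) of male C57BL/6 mice, which were 6 to 7 weeks old and weighed 18 to 20 g at the start. The 3 CAC samples came from mice given Lewis lung carcinoma (LLC) cells under the skin near the ilium, a transplanted tumor model of cancer-associated cachexia. The 3 CONT samples came from mice given phosphate-buffered saline (PBS) alone, and the tissue of both groups was taken 28 days after the injection. The comparison asks which KLF genes differ in the fat of mice with a tumor.

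KLF proteins are transcription factors that bind GC-rich and CACCC-containing DNA through C2H2 zinc fingers at the C-terminal end, while the rest of the protein recruits activators or corepressors. In the fat lineage they act at successive steps. KLF4, KLF5, KLF6, KLF9, KLF13 and KLF15 are known to favor the formation of adipocytes, whereas KLF2, KLF3 and KLF7 are known to restrain it. In mature tissues KLF15 directs the use of amino acids and glucose in fasting, and both Klf9 and Klf15 are textbook genes induced by glucocorticoids.

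The promoters of the 4 genes whose CAC levels lay above every CONT level are shown first, since the results turn on these genes. Each window runs from 250 bases before to 50 bases after the transcription start of RefSeq, build GRCm38.p6, 5′ to 3′ on the strand of the gene. They lie at chr6:90462326-90462625 on the plus strand (Klf15), chr19:23140976-23141275 on the plus strand (Klf9), chr7:63938866-63939165 on the minus strand (Klf13) and chr12:24651121-24651420 on the plus strand (Klf11). Capitals mark, on either strand, the GC box GGGCGG and the CACCC box, both letters that KLF and SP proteins can bind, the CRE half-site TGACG and the E-box CACGTG.
Klf15: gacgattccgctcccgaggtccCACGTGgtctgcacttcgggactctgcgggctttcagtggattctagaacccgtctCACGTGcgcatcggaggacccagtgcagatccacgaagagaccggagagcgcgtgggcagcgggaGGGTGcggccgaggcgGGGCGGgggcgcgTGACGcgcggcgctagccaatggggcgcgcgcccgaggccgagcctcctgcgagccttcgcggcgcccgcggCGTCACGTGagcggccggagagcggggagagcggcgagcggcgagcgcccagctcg
Klf9: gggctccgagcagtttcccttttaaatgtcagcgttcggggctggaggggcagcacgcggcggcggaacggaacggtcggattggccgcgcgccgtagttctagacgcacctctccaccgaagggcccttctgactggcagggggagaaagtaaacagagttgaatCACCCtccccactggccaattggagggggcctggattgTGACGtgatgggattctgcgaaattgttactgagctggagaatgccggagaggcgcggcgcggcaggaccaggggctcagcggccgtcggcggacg
Klf13: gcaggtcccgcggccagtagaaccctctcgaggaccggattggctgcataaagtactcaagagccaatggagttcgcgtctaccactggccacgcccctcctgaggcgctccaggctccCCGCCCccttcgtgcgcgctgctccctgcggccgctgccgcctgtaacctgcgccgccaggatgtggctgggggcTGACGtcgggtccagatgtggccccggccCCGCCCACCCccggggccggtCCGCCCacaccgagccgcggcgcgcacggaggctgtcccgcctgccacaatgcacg
Klf11: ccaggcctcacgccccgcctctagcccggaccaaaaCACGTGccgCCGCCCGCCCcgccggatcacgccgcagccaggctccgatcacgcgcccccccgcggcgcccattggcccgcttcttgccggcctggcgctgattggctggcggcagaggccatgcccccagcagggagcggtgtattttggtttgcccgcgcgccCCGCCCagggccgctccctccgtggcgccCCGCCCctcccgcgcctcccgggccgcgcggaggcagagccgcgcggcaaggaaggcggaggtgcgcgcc

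The Klf15 window held 3 E-boxes, at bases -228 to -223, -172 to -167 and -3 to 3 counted from the start, and the last one overlapped a CRE half-site at -6 to -2. An E-box was found in 7.15% of 32851 RefSeq promoter windows, and 3 or more in 0.0883%. The Klf9 window held no GC box, 1 CACCC box at -84 to -80 and 1 CRE half-site at -46 to -42. The Klf13 window held 3 GC boxes, and the one at -27 to -22 overlapped its CACCC box. The Klf11 window held 1 E-box and 4 GC boxes, a pair of which overlapped.

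Of the 10 members, 9 had a window, all but Klf5. A GC box was found in 8 of these 9 windows and in 35.7% of all windows, a CACCC box in 6 of 9 and in 57.5%, a CRE half-site in 6 of 9 and in 20.8%, and an E-box in 4 of 9. The GC content of the 9 windows ranged from 58.3% to 77.7% with a median of 72%, against a median of 52.7% over all windows. None of the 9 windows held the glucocorticoid receptor half-site AGAACA (19% of all windows), the full glucocorticoid response element (0.167%), the full CRE TGACGTCA (1.79%), the longer KLF site GGGTGTGG (3.56%) or the CArG box (1.63%). The MEF2 site was found in the Klf2 window alone among the 9 and in 3.19% of all windows. These are matches of letters in these windows and not measured binding.

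Total counts ranged from 15713794 to 20638492 in CONT and from 22829269 to 25926425 in CAC. CONT replicate 1 stood apart, with 30.2% of its counts on genes of the mitochondrial genome against 3.89% to 5.04% in the other 5 libraries. Its short genes were also relatively high: among genes over 10 CPM (counts per 1e6 counts of the TMM-adjusted library), the median ratio to the mean of CONT replicates 2 and 3 was 1.62 for genes of up to 2000 bases and 0.833 for genes over 4000 bases. Epididymal epithelium genes summed to 208, 3.02 and 10850 CPM in CONT replicates 1 to 3 and to at most 0.868 CPM in CAC. Values are therefore given per library, and with CONT replicate 1 left out where that matters.

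Levels of 9 of the 10 KLF genes were on average higher in CAC than in CONT, while 45.9% of all genes tested had a fold change above 0. The median log2 fold change (CAC minus CONT) was 0.53 over the members and -0.06 over all 17296 genes tested. The direction of Klf2, Klf4 and Klf6 turned when certain single libraries were left out, and that of the other 7 members did not. No member passed edgeR's quasi-likelihood test at a Benjamini-Hochberg adjusted p under 0.05, and neither did any other gene (0% of 17296 genes, with a smallest adjusted p of 0.127). At an unadjusted p under 0.05, 3 members were higher in CAC (Klf9, Klf13 and Klf15), against 6.31% of all genes, and 0 were lower, against 6.95%. DESeq2 called the same 3 genes higher at an adjusted p under 0.05, against 3.22% of the 17160 genes with an adjusted p, and 0 lower, against 2.4%. In Klf9, Klf11, Klf13 and Klf15 every CAC library lay above every CONT library, a pattern seen in 11.8% of all genes, and no member showed the opposite pattern, seen in 10.7%. By an exact permutation test (two-sided), each of these 4 genes had p = 0.1, the smallest that 3 libraries against 3 allow.

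**Figure D1:**
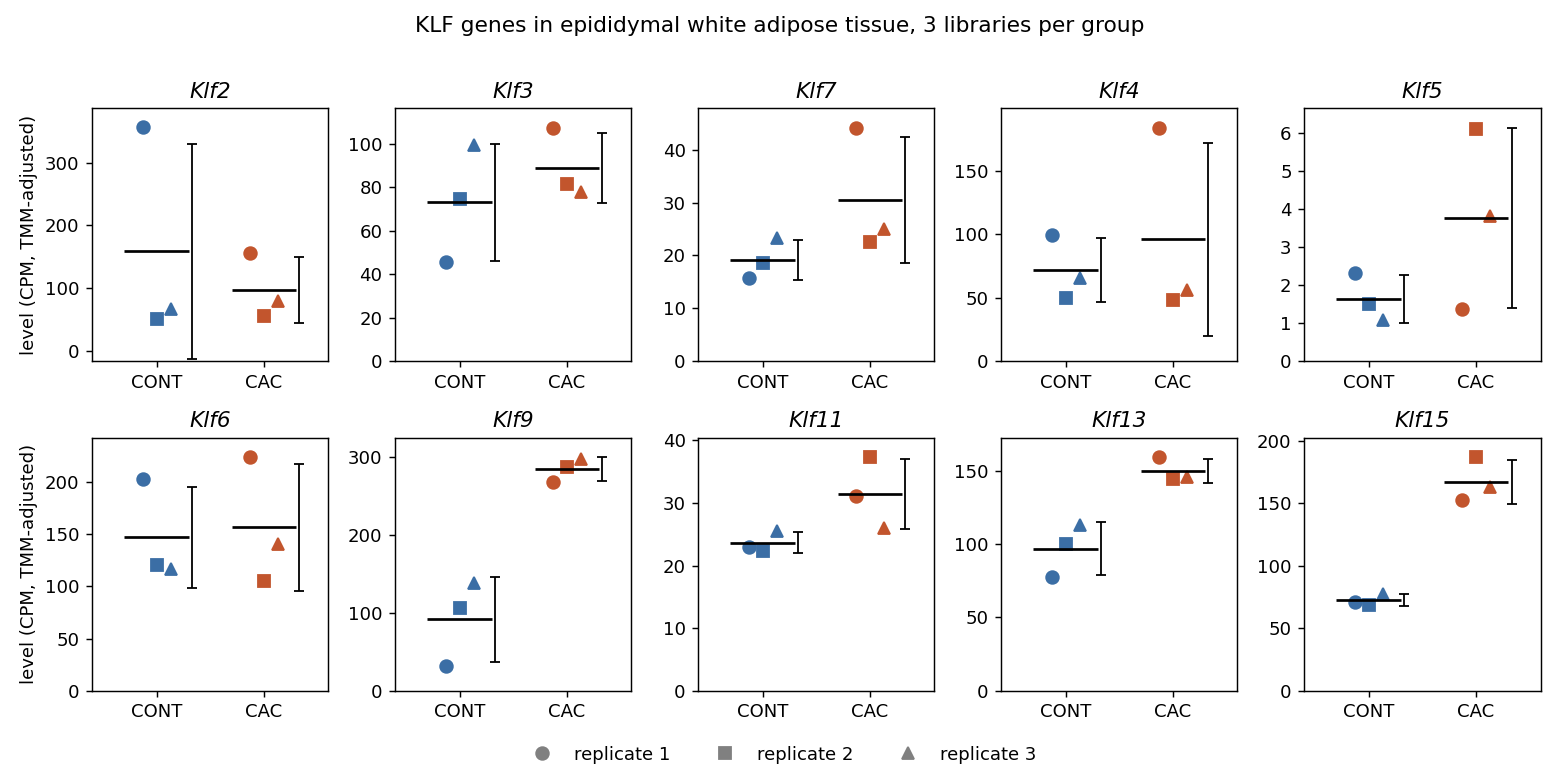
Level of each KLF gene in CPM on the TMM-adjusted library size (vertical axes, each with its own scale), with 1 symbol per library, a line at the mean and a bar of 1 SD on each side of it (n = 3 per group). The CAC libraries lie above all CONT libraries for Klf9, Klf11, Klf13 and Klf15, while Klf2 is set apart by CONT replicate 1 at 357 CPM and Klf4 by CAC replicate 1 at 184 CPM.

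Klf15 had the smallest p of the family and ranked 32 of 17296 genes. Its levels were 71.1, 68.5 and 77.6 CPM in CONT replicates 1 to 3 and 152, 187 and 163 CPM in CAC replicates 1 to 3. The groups were far apart and each was tight, with 72.4 ± 4.68 CPM in CONT and 167 ± 17.6 CPM in CAC (SD, n = 3). The difference was 2.31-fold (95% interval 1.72 to 3.10), a log2 fold change of 1.21 with an SE of 0.18 and an adjusted p of 0.177 in edgeR's quasi-likelihood test. DESeq2 gave Klf15 an adjusted p of 1.37e-08. CONT replicate 1 stood at 0.973 times the mean of CONT replicates 2 and 3 for Klf15. Without any 1 of the 6 libraries the edgeR log2 fold change of Klf15 stayed between 1.13 and 1.32. Its locus in GRCm38 is chr6:90462576-90475238, plus strand.

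Klf9, a glucocorticoid-induced member that acts late in adipocyte formation, had the largest average fold change of the 10 genes over all 6 libraries, but was second to Klf5 without CONT replicate 1 (1.23 against 1.56 on the log2 scale) and in limma's voom with sample quality weights (1.34 against 1.70). Its levels were 31.5, 106 and 138 CPM in CONT and 268, 288 and 298 CPM in CAC. The CAC libraries were close together and all well above CONT, whose lowest library was CONT replicate 1 at 0.258 times the mean of the other CONT libraries. The difference was 3.09-fold (95% interval 1.33 to 7.21), a log2 fold change of 1.63 with an SE of 0.51 (edgeR adjusted p = 0.29, DESeq2 adjusted p = 0.0289). Without CONT replicate 1 the log2 fold change was smaller and its error too, at 1.23 with an SE of 0.19 (edgeR adjusted p = 0.2). DESeq2 called Klf9 in 3 of its 7 fits, with all libraries, without CONT replicate 1 and without CONT replicate 3.

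Klf13, which is known to act upstream of Pparg in adipocyte formation, was at 77.4, 99.8 and 113 CPM in CONT and at 159, 144 and 146 CPM in CAC. The lowest CAC library, at 144 CPM, was above the highest CONT library, at 113 CPM. The log2 fold change was 0.63 with an SE of 0.20, a difference of 1.55-fold (95% interval 1.10 to 2.17, edgeR adjusted p = 0.298, DESeq2 adjusted p = 0.0402). As for Klf9, DESeq2 called Klf13 with all libraries, without CONT replicate 1 and without CONT replicate 3, and in no other of its 7 fits. Klf11, a repressor that recruits the SIN3A corepressor, was at 23.0, 22.4 and 25.5 CPM in CONT and at 31.0, 37.3 and 26.1 CPM in CAC. Its groups only just failed to overlap, since CAC replicate 3 at 26.1 CPM was close to CONT replicate 3 at 25.5 CPM, and they did overlap on upper-quartile scaling. The log2 fold change of Klf11 was 0.41 with an SE of 0.20 (edgeR adjusted p = 0.422), and no DESeq2 fit called it.

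The other members that favor adipocyte formation had groups that overlapped. Klf5, which is induced early by C/EBPβ and C/EBPδ and then activates Pparg, was the least abundant member with 24 to 34 reads per CONT library and 33, 151 and 101 reads in CAC. In CPM it was at 2.32, 1.49 and 1.08 in CONT and at 1.36, 6.09 and 3.81 in CAC. CAC replicate 1 thus lay among the CONT libraries while the other CAC libraries lay above them all. The log2 fold change of Klf5 was 1.21 with an SE of 0.65 (edgeR adjusted p = 0.454), and it ranged from 0.68 without CAC replicate 2 to 1.64 without CAC replicate 1.

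Klf4, a pluripotency factor that also acts at the start of adipocyte formation, was at 99.0, 49.8 and 65.9 CPM in CONT and at 184, 48.4 and 55.7 CPM in CAC. CAC replicate 1 was 3.53 times the mean of the other CAC libraries, which lay within or just below the CONT range. The log2 fold change of Klf4 was 0.42 with an SE of 0.56, and without CAC replicate 1 it turned to -0.43. Klf6, which represses the preadipocyte gene Dlk1, was at 203, 121 and 117 CPM in CONT and at 224, 105 and 140 CPM in CAC. Replicate 1 was the highest library of both groups, and the log2 fold change was 0.09 with a 95% interval from -0.78 to 0.96.

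Among the members that restrain adipocyte formation, Klf2, a gene of quiescent endothelium and T cells that also represses Pparg, was set apart by a single library. It was at 357, 51.1 and 66.9 CPM in CONT and at 156, 55.3 and 79.4 CPM in CAC. CONT replicate 1 was 6.05 times the mean of the other CONT libraries, so that the log2 fold change was -0.70 with an SE of 0.80 over all libraries but 0.73 without that library (edgeR adjusted p = 0.735 and 0.546). Summed endothelial markers were also highest there, at 3443 CPM against 1576 to 2559 CPM in the other 5 libraries. Of these 10 markers, 6 were highest there of all 6 libraries, led by Cldn5 at 627 and Egfl7 at 620 CPM, while Vwf was lowest there at 71.3 CPM. Summed adipocyte markers were highest in CONT replicate 1 too, at 56420 CPM against 24480 to 50280 CPM elsewhere, while summed macrophage markers were lowest there, at 727 CPM. Klf2 is also a short gene, of 1847 bases. Genes of up to 2000 bases in CONT replicate 1 had a median ratio of 1.62 to CONT replicates 2 and 3. The part of cell types or of gene length in the Klf2 value was not tested. In bulk tissue, fewer cells of a type and less RNA per cell cannot be told apart.

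Klf3, a repressor that binds the corepressor CtBP and acts on Cebpa, was at 45.4, 74.5 and 99.2 CPM in CONT and at 107, 81.5 and 77.7 CPM in CAC. The groups overlapped, with a log2 fold change of 0.28 (SE 0.31) that was 0.04 without CONT replicate 1. Klf7, which holds back the formation of adipocytes, was at 15.8, 18.5 and 23.2 CPM in CONT and at 44.1, 22.4 and 24.9 CPM in CAC. CAC replicate 2 lay below CONT replicate 3, and the log2 fold change was 0.67 with an SE of 0.32 (edgeR adjusted p = 0.419). It was 0.35 without CAC replicate 1, the highest library.

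**Figure D2:**
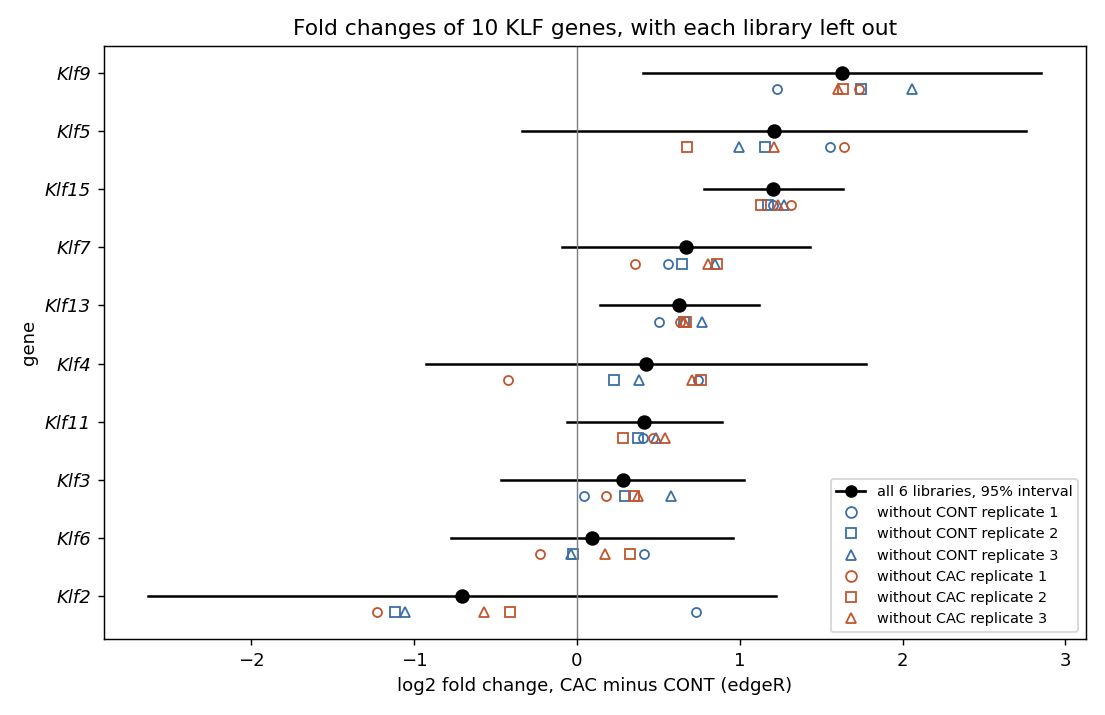
Log2 fold change of each KLF gene, CAC minus CONT, from edgeR (horizontal axis) with its 95% interval over all 6 libraries (black), and the same value with each library left out in turn (open symbols). For Klf15 the 6 open symbols lie between 1.13 and 1.32, whereas for Klf2 they reach from -1.23 to 0.73 on both sides of 0.

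Klf2, Klf4 and Klf6 were high together in replicate 1 of both groups. Over the mean of replicates 2 and 3, CONT replicate 1 stood at 6.05 for Klf2, 1.71 for Klf4 and 1.71 for Klf6, and CAC replicate 1 at 2.32, 3.53 and 1.82. Klf9 and Klf15 were not high in either, with ratios of 0.258 and 0.973 in CONT replicate 1 and of 0.916 and 0.872 in CAC replicate 1. The longest members, Klf3, Klf7 and Klf13, had ratios of 0.523 to 0.757 in CONT replicate 1 and of 1.10 to 1.86 in CAC replicate 1. In CAC replicate 1 the median ratio of all genes over 10 CPM hardly moved with length, from 0.959 for genes of up to 2000 bases to 1.02 for genes over 4000 bases. With the trend of each library with gene length and GC content removed, Klf15 had a log2 fold change of 1.30, Klf9 of 1.61, Klf13 of 0.66 and Klf2 of -0.28.

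**Figure D3:**
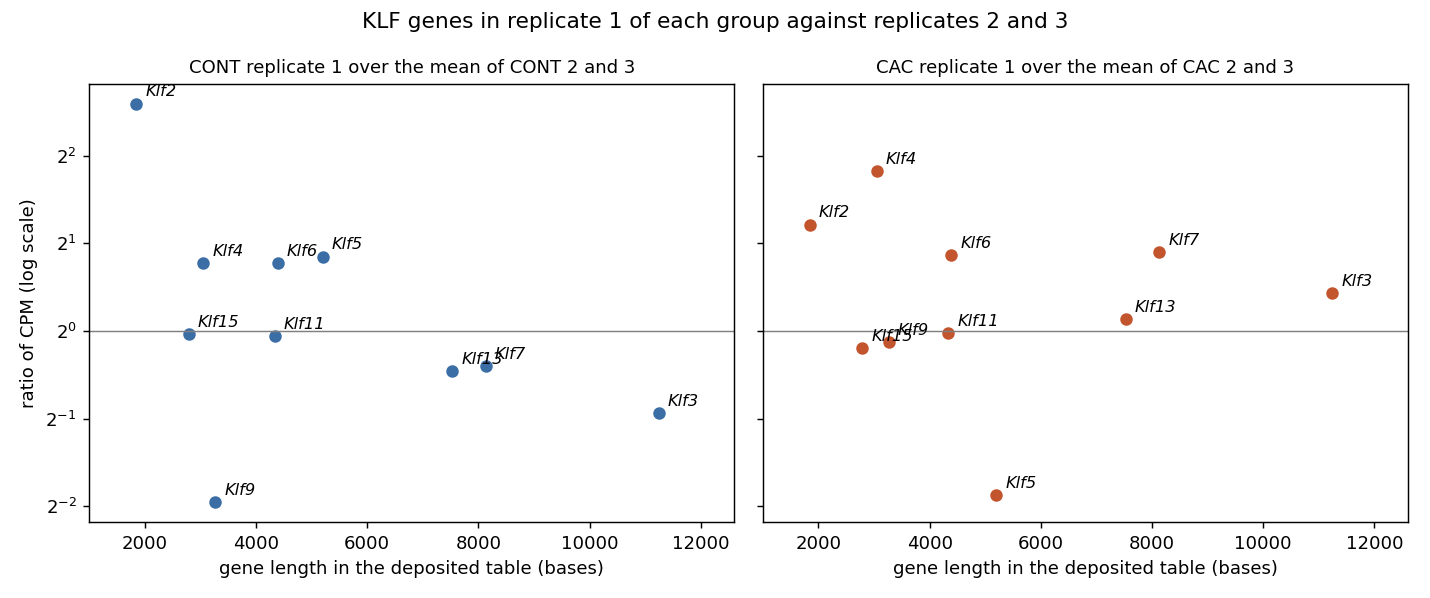
Ratio of the CPM of each KLF gene in replicate 1 to the mean of replicates 2 and 3 (vertical axis, log scale) against gene length in bases (horizontal axis), for CONT (left) and CAC (right). Klf2, Klf4 and Klf6 lie above 1 in both panels, and Klf9 at 0.258 and Klf2 at 6.05 are the extremes in CONT.

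Levels of different genes can be compared only per length, for which the deposited FPKM values were used, in which each count is scaled to the length of its gene and to a normalized library total set by the authors. In CONT the order of the means was Klf2, Klf6, Klf9, Klf15, Klf4, Klf13, Klf3, Klf11, Klf7 and Klf5, from 69.3 ± 75.8 FPKM for Klf2 and 27.0 ± 9.18 FPKM for Klf6 to 0.253 ± 0.0994 FPKM for Klf5 (SD, n = 3). The first 5 genes of this order had ranges that overlapped between neighbors, as did Klf3 and Klf11, and the other neighbors were separate in every library. The places of Klf2 and Klf9 in this order rested on CONT replicate 1. Klf2 was at 157, 22.1 and 29.1 FPKM in CONT replicates 1 to 3, and Klf9 at 7.83, 26.0 and 33.9 FPKM. Klf9 was thus the highest member in CONT replicates 2 and 3. In CAC Klf9 came first with 71.2 ± 3.36 FPKM and Klf15 second with 48.9 ± 4.82 FPKM, and the ranges of these genes did not overlap with each other, although both overlapped the range of Klf2, which was above Klf9 in CAC replicate 1 (69.8 against 67.7 FPKM). They were followed by Klf2 at 43.0 ± 23.8, Klf6 at 29.2 ± 11.6, Klf4 at 25.8 ± 20.7 and Klf13 at 16.2 ± 1.02 FPKM, whose ranges overlapped between neighbors. Klf5 was the lowest in both groups, at 0.588 ± 0.368 FPKM in CAC.

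The 17 KLF genes in the table summed to 138 to 285 FPKM per CONT library and to 226 to 324 FPKM per CAC library, and the 10 members made up 89.6% to 95.6% of the sum. Klf9 alone took 2.75%, 18.8% and 20.2% of the KLF FPKM in CONT and 20.9%, 31.7% and 30.0% in CAC, so that the groups did not overlap, although CAC replicate 1 was close to CONT replicate 3. Klf9 and Klf15 together took 10.01%, 32.99% and 33.53% in CONT and 34.73%, 55.72% and 49.21% in CAC. Klf2, Klf4 and Klf6 together took 77.5%, 41.3% and 40.4% in CONT and 49.8%, 25.1% and 30.7% in CAC, where the groups overlapped.

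**Figure D4:**
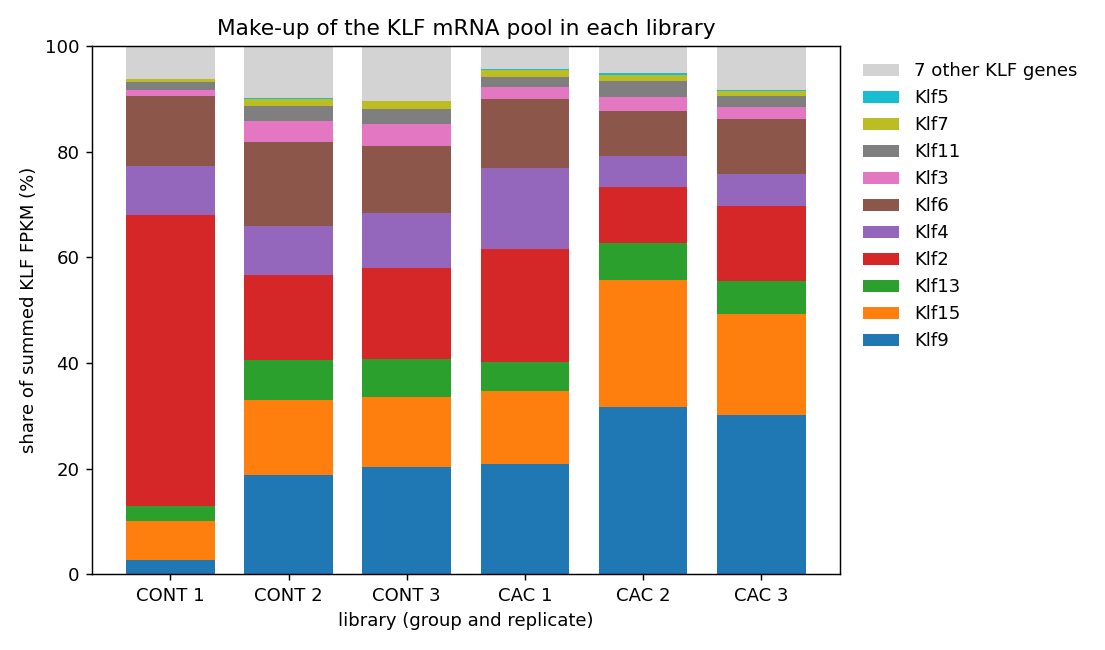
Share of the summed FPKM of 17 KLF genes (vertical axis, percent) taken by each of the 10 members and by the 7 other genes (grey) in each library (horizontal axis). The blue and orange parts, Klf9 and Klf15, reach 55.72% in CAC replicate 2 and 10.01% in CONT replicate 1, where Klf2 (red) fills most of the bar.

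Of the KLF genes outside the 10 members, 6 were tested. Klf16 was at 24.3, 15.8 and 22.0 CPM in CONT and at 14.5, 9.77 and 14.3 CPM in CAC, every CAC library below CONT, with a log2 fold change of -0.68 (SE 0.27, unadjusted p = 0.0438 in edgeR). The other 5 had groups that overlapped, with log2 fold changes of 1.12 for Klf1, 0.21 for Klf10, -0.33 for Klf8, -0.37 for Klf12 and -1.14 for Klf14. The median of the 6 was -0.35, and DESeq2 called none of them. The SP proteins bind the same GC boxes through closely related zinc fingers. Of the 5 SP genes tested, Sp1, Sp3 and Sp4 were higher in every CAC library than in any CONT library, against 11.8% of all genes. Sp1, the founding GC-box factor, was at 53.1, 82.0 and 95.4 CPM in CONT and at 109, 140 and 134 CPM in CAC, with a log2 fold change of 0.73 (SE 0.26, edgeR adjusted p = 0.33). Sp3 had a log2 fold change of 0.50 (SE 0.17) and Sp4 of 0.92 (SE 0.35), with edgeR adjusted p-values of 0.305 and 0.35. DESeq2 called Sp3 alone of the 5, as higher, against 3.22% of the genes with an adjusted p. Sp2 was lower in every CAC library, against 10.7% of all genes, with a log2 fold change of -0.24, and the groups overlapped for Sp5 at -2.06.

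The genes of the cofactors that KLF proteins work with had fold changes on both sides of 0. Of 15 corepressors, acetyltransferases and ubiquitin ligases, 5 had a log2 fold change above 0 and the median was -0.05. Ncor1, a scaffold of histone deacetylase complexes, had a log2 fold change of 0.62 and the acetyltransferase Ep300 also of 0.62, both with all CAC libraries above CONT. Fbxw7, a ligase subunit that marks KLF5 for degradation, was at 57.2, 18.8 and 18.4 CPM in CONT and at 15.8, 15.3 and 15.6 CPM in CAC. Its log2 fold change of -1.01 thus drew mainly on CONT replicate 1.

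Transcription factors of the adipocyte program and their targets had a median log2 fold change of -0.07 over 18 genes, 9 of them above 0. Cebpd, which acts upstream of Klf5, was at 57.7, 33.9 and 30.3 CPM in CONT and at 127, 119 and 138 CPM in CAC. The groups were far apart, and the log2 fold change was 1.66 (SE 0.28, edgeR adjusted p = 0.215, DESeq2 adjusted p = 8.86e-05). Rxra had a log2 fold change of 0.60 and Ebf1 of -0.58, neither with an unadjusted p under 0.05. Pparg, on which Klf2, Klf5, Klf7 and Klf13 are known to act, had a log2 fold change of 0.09 (SE 0.24).

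Of 8 tested genes known as targets of KLF15, 3 were higher (Prodh, Tdo2 and Bcat2) and 2 lower (Gpt and Acss2) in CAC at an unadjusted p under 0.05, against 6.31% and 6.95% of all genes, with a median log2 fold change of 0.64. Prodh, the proline oxidase, was at 102, 60.4 and 65.4 CPM in CONT and at 120, 217 and 158 CPM in CAC, with a log2 fold change of 1.12 (SE 0.31, edgeR adjusted p = 0.273, DESeq2 adjusted p = 0.0373). Bcat2, which starts the breakdown of branched-chain amino acids, was at 415, 172 and 194 CPM in CONT and at 409, 755 and 882 CPM in CAC. CAC replicate 1 lay just below CONT replicate 1 and the other CAC libraries far above CONT. Tdo2, which degrades tryptophan, showed the same order, with 2.50, 1.66 and 0.859 CPM in CONT and 1.97, 16.6 and 17.8 CPM in CAC. Gpt, an alanine transaminase gene, went the other way with a log2 fold change of -1.07 (SE 0.35), and Slc2a4, the gene of the insulin-responsive glucose transporter GLUT4, had a log2 fold change of -0.16 (SE 0.20).

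Of 11 tested genes known as targets of other members, 3 were higher, C1qtnf12 and S1pr1 among them, and 2 were lower (Tgfb1 and Pdgfa) at an unadjusted p under 0.05, against 6.31% and 6.95% of all genes, and the median log2 fold change was -0.01. C1qtnf12, the adipolin gene that KLF3 represses, was at 66.9, 67.5 and 77.2 CPM in CONT and at 126, 115 and 150 CPM in CAC, with a log2 fold change of 0.89 (SE 0.18, edgeR adjusted p = 0.226). S1pr1, a KLF2 target in lymphocytes and endothelium, had a log2 fold change of 1.16 (SE 0.28) with no overlap of the groups. Tgfb1 had a log2 fold change of -0.73 (SE 0.18), with every CAC library below CONT. DESeq2 called 3 genes of this list higher and 2 lower, against 3.22% and 2.4% of the genes with an adjusted p.

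The kinase route from MEK5 over ERK5 to MEF2, which induces Klf2 and Klf4, was covered by 8 genes, none called by edgeR or DESeq2 at an adjusted p under 0.05. Of these, 4 had a log2 fold change above 0, with a median of 0.12. Mef2d and Mef2a were higher in every CAC library, by log2 fold changes of 0.58 and 0.57, and the ERK5 gene Mapk7 was lower in every CAC library, by -0.68 (SE 0.25, edgeR adjusted p = 0.338).

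Klf9 and Klf15 are known to be induced by glucocorticoids, and other genes known for that response were compared beside them. None of the 16 genes tested passed edgeR at an adjusted p under 0.05. Of these genes, which do not include any KLF gene, 14 had a log2 fold change above 0 with a median of 1.21. At an unadjusted p under 0.05, 7 were higher in CAC (Fkbp5, Pdk4, Errfi1, Zbtb16, Sgk1, Mt2 and Per1) and 0 were lower, against 6.31% and 6.95% of all genes. Groups did not overlap for 5 genes higher in CAC and for 0 lower, against 11.8% and 10.7% of all genes. DESeq2 called 5 higher and 0 lower, against 3.22% and 2.4% of the genes with an adjusted p. Fkbp5, which tunes the glucocorticoid receptor, was at 120, 88.9 and 136 CPM in CONT and at 663, 606 and 622 CPM in CAC, a log2 fold change of 2.45 (SE 0.26, edgeR adjusted p = 0.127). Pdk4, a brake on pyruvate oxidation, had a log2 fold change of 2.78 (SE 0.30) and Zbtb16 of 2.17 (SE 0.43), both without overlap of the groups. The gene of the receptor itself, Nr3c1, had a log2 fold change of -0.16 (SE 0.28) and its groups overlapped. The part of glucocorticoids in the Klf9 and Klf15 levels was not tested.

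Klf9 is also an output of the circadian clock, and the hour at which each sample was taken is not given in the sources used here. Of 19 clock genes, 12 had a log2 fold change above 0, and the median was 0.22. At an unadjusted p under 0.05, 5 were higher in CAC, among them Cry1 and Per1, the last also in the glucocorticoid list, and 1 was lower, against 6.31% and 6.95% of all genes. The log2 fold change was 1.18 (SE 0.28) for Cry1 and -1.78 (SE 0.46) for Bhlhe41, the one that was lower. Dbp, an output gene with a strong daily rhythm, was at 6.33, 132 and 175 CPM in CONT and at 52.4, 39.2 and 6.53 CPM in CAC. CONT replicate 1 was the lowest CONT library for Klf9 as well as for Dbp and Per1, whereas CAC replicate 3 was the lowest CAC library for Dbp but the highest for Klf9. The clock gene Arntl ran opposite to Dbp in these libraries, at 25.7, 4.2 and 4.5 CPM in CONT and at 2.2, 8.2 and 31.8 CPM in CAC. The part of the clock in the Klf9 levels was not tested.

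Klf2, Klf4 and Klf6 also respond within minutes to stress and serum, as the immediate early genes do. Of 17 such genes 8 had a log2 fold change above 0, with a median of -0.08. At an unadjusted p under 0.05 (6.31% of all genes higher and 6.95% lower), 2 were higher, Myc at 1.84 (SE 0.33) and Fosl2 at 1.69 (SE 0.37), and 4 were lower, Fosb at -2.17 (SE 0.59), Egr1, Egr2 and Cyr61. The value of Egr2 rested on CONT replicate 3, at 71.6 CPM against 0.646 to 3.20 CPM in the other 5 libraries, and its groups overlapped. In CAC replicate 1, where Klf4 was highest, 7 of the 17 genes were at their highest and 8 at their lowest among the CAC libraries. In CONT replicate 1, where Klf2 was highest, 9 of the 17 were at their highest and 4 at their lowest among the CONT libraries.

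**Figure D5:**
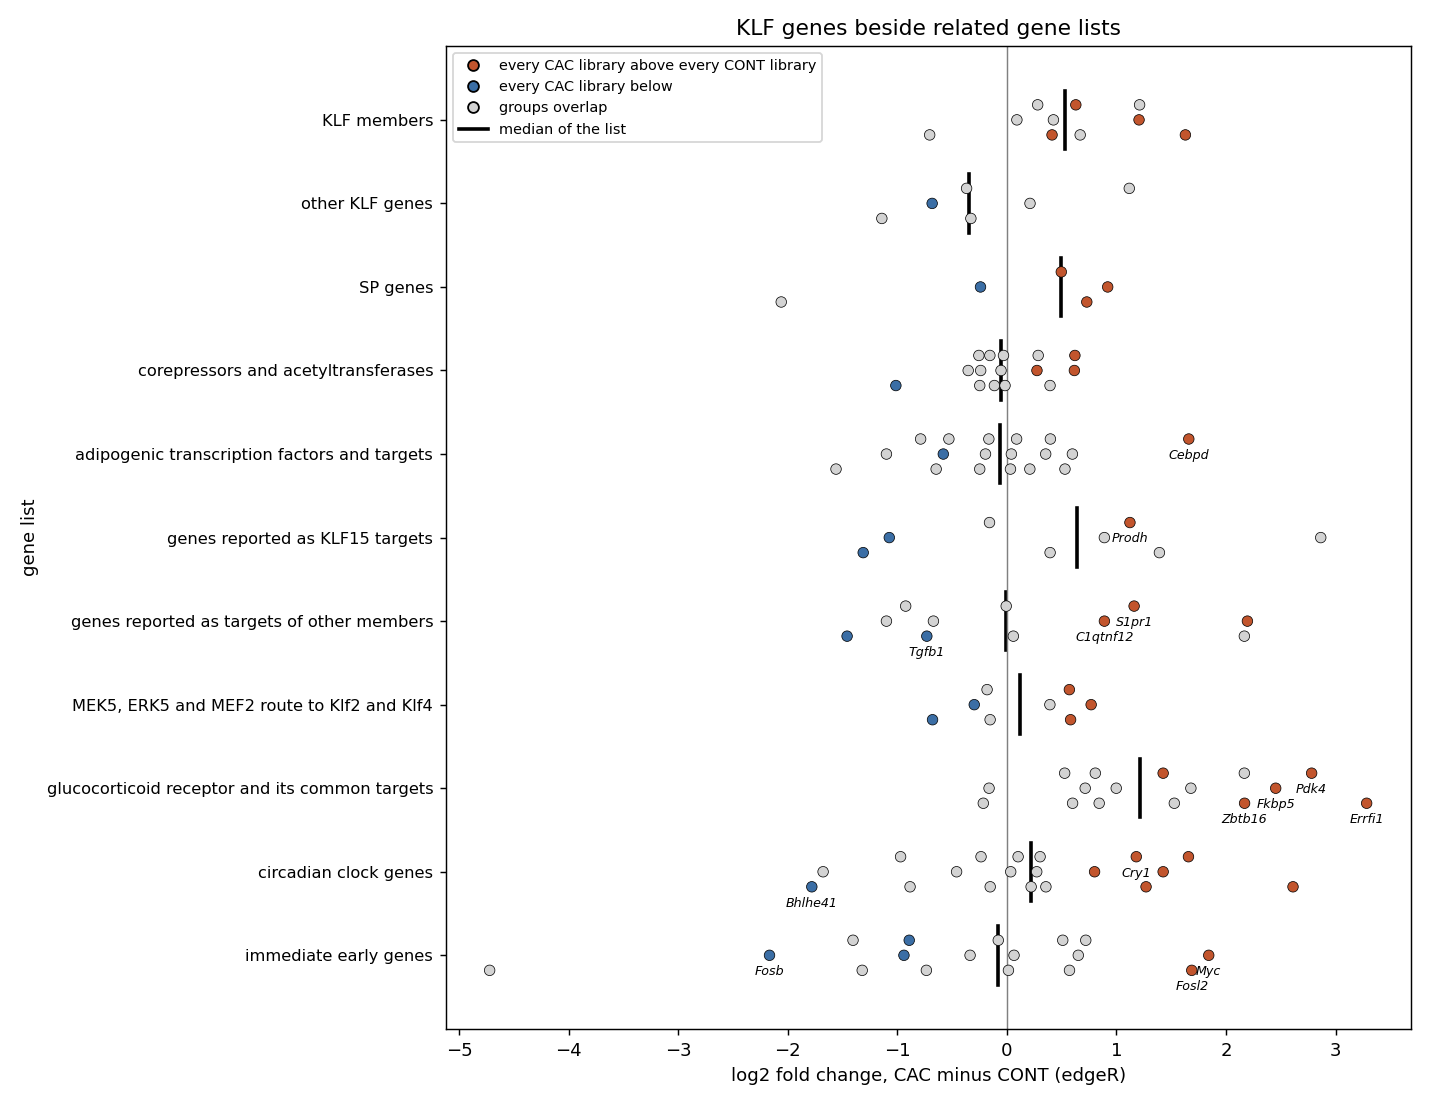
Log2 fold change of each tested gene (points, CAC minus CONT, horizontal axis) for the 10 KLF members and for 10 related lists (vertical axis), with the median of each list as a black line. Orange points have every CAC library above every CONT library and blue points every CAC library below, and genes outside the KLF members with an unadjusted p under 0.01 are named. The median is 0.53 for the KLF members and 1.21 for the glucocorticoid list.

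Markers of the cell types in the tissue were compared beside these values. Adipocyte markers summed to 24480 to 56420 CPM in CONT and 36760 to 50280 CPM in CAC, and 4 of 10 had a log2 fold change above 0. The leptin gene Lep, on the same list, was at 697, 409 and 414 CPM in CONT and at 512, 3.996 and 0.415 CPM in CAC, so that CAC replicate 1 stood apart from the other CAC libraries. Of 10 fibroblast and progenitor markers 9 were below 0 (median -1.25), of 8 B cell markers 7 (median -1.36), of 10 macrophage markers 9 (median -0.54), and of 8 T cell markers 7 (median -0.53). Their sums were 2625 to 3284 CPM in CONT and 1457 to 2433 CPM in CAC for fibroblasts, 54.1 to 94.4 and 9.63 to 21.0 CPM for B cells, 727 to 2024 and 862 to 1434 CPM for macrophages, and 10.6 to 19.1 and 9.29 to 11.1 CPM for T cells. Log2 fold changes were above 0 for 5 of 10 endothelial markers, for 6 of 8 smooth muscle and pericyte markers (690.5 to 1339 CPM over all libraries) and for 2 of 8 mesothelial markers (95.9 to 260.2 CPM). No marker of the adipocyte, endothelial, fibroblast or macrophage lists was at 0 in any library. The part of the lower fibroblast and B cell markers in the KLF levels was not tested.

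The 5 genes whose log2 CPM over the 6 libraries was most like that of Klf15, among 17295 genes, were Ddit4, Gm43091, Rabl6, Hic2 and Ppm1k, with Pearson r from 0.999 to 0.993. They are a description of 6 points that fall into the groups compared. Ddit4, a stress-induced inhibitor of mTORC1, had a log2 fold change of 2.89 (edgeR adjusted p = 0.127), and Ppm1k, the phosphatase that activates the breakdown of branched-chain amino acids, of 1.34 (edgeR adjusted p = 0.142). Among the members themselves, Klf9 and Klf13 had the most similar pattern, with an r of 0.973, followed by Klf4 and Klf6 with 0.91, and Klf15 was nearest to Klf13 with 0.882.

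Genes that overlap a member had few reads beside it. Genes that overlap Klf13 on the opposite strand, Gm27252 and E030018B13Rik, had 350 and 428 reads over all libraries against 16953 for Klf13. Klf3 shares its locus with C230096K16Rik on the same strand (257 reads) and Gm20033 on the opposite strand (337 reads) against 11093 reads of its own. Klf9 holds Mir1192 (22 reads against 27378). Whether the reads were counted by strand is not given in the sources used here, so that reads of genes on opposite strands cannot be told apart.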

How the data were processed

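Per the labels and the study's methods, mRNA was selected with poly(A) beads and sequenced from 3 CONT and 3 CAC eWAT samples. The authors deposited whole-number read counts per gene without normalization and FPKM values made from the same counts. The submitters' processing notes name HISAT2 2.0.5 and featureCounts 1.5.0-p3, and the genome was that of Ensembl release 94 (GRCm38). The strand setting is not given in the sources used here. Per the study, the 6 samples came from 6 mice, 3 of each group, so the spread within a group is that between mice. No pair of libraries within a group agreed within sampling noise.

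Differences in counts were tested with edgeR 4.0.16 under R 4.3.3 (TMM, filterByExpr by group, robust quasi-likelihood test, condition as the only term, Benjamini-Hochberg adjustment over 17296 genes). DESeq2 1.42.0, the tool the study used in another version, was an alternative, as were other scalings and filters, limma 3.58.1 on log2(FPKM + 1) and log2(FPKM + 0.1), voom with sample quality weights, the replicate number as a block, removal of trends with gene length and, chosen after seeing the data, with GC content, and each library left out in turn. CPM is on the TMM-adjusted library size, and 1 CPM stood for 11.2 to 26.5 reads, so that 1 read was below 0.1 CPM in every library. The tests were tried on simulated counts. The members, gene lists and tests were chosen with earlier results of these data known. The lists were written by hand. Named were all members, the tested KLF and SP genes, the 3 genes of smallest p of each other list that is described by name, the 5 genes most like Klf15 and overlapping genes of at least 10 reads. Bcat2, Slc2a4, Pparg, Nr3c1, Per1, Dbp, Arntl, Egr2, Lep, Cldn5, Egfl7, Vwf and the genes of a list that are given by name without a value were named after their values were seen. Some listed genes are not reported here by name. Promoter sequences are those of RefSeq (GRCm38.p6).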

Additional observations from a re-analysis of the deposited data

How the results depend on the processing

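No member passed an adjusted p under 0.05 in any edgeR or limma-on-FPKM fit, while DESeq2 called 3 members (Klf9 at 1.67, adjusted p = 0.0289; Klf13 at 0.66, adjusted p = 0.0402; Klf15 at 1.23, adjusted p = 1.37e-08) and limma's voom with sample quality weights called 2 (Klf9 at 1.34, adjusted p = 0.0492; Klf15 at 1.27, adjusted p = 0.0219). Voom also gave 5 members an unadjusted p under 0.05 and turned Klf2 to 0.19. Over all genes the number with an adjusted p under 0.05 was 0 with edgeR, 965 with DESeq2, 956 with voom, and 5 and 6 with limma on FPKM with the larger and the smaller pseudocount, while voom gave 4920 genes an unadjusted p under 0.05 against 2294. The cause of these differences was not tested.

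With 1 library left out, DESeq2 called 1 to 3 members and 615 to 2102 genes (2102, 623 and 888 without CONT replicate 1, 2 and 3, and 1506, 696 and 615 without CAC replicate 1, 2 and 3). Klf15 was called in all 6 of these fits, with log2 fold changes of 1.25, 1.18 and 1.30 without CONT replicates 1 to 3 and of 1.30, 1.15 and 1.26 without CAC replicates 1 to 3, and Klf9 (1.27 and 2.10) and Klf13 (0.55 and 0.80) were called without CONT replicate 1 and without CONT replicate 3. The number of genes with an unadjusted p under 0.05 ranged from 1384 to 3032 in edgeR and reached 3632 without CAC replicate 1 and 4453 without CONT replicate 1 in DESeq2. The edgeR log2 fold change ranged from -1.23 to 0.73 for Klf2, from -0.43 to 0.76 for Klf4 and from -0.22 to 0.41 for Klf6. Klf2 turned to 0.73 (DESeq2 0.77) without CONT replicate 1, Klf4 to -0.43 (DESeq2 -0.44) without CAC replicate 1, and Klf6 to -0.03, -0.04 and -0.22 (DESeq2 -0.022, -0.023 and -0.24) without CONT replicate 2, CONT replicate 3 and CAC replicate 1. The other 7 members had the same direction in all their fits, 24 for Klf5 and 26 for the others. The groups of Klf9, Klf13 and Klf15 did not overlap in any of these scalings or with any library left out, where 10.8% to 18.1% of all genes were higher without overlap, the most without CONT replicate 1. Those of Klf7 did not overlap on upper-quartile scaling or without CONT replicate 3, CAC replicate 1 or CAC replicate 2 (10.8%, 15.5%, 17.7% and 13.3% of all genes), nor those of Klf3 without CONT replicate 3 and of Klf5 without CAC replicate 1.

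The replicate numbers showed no sign of pairing the samples. Deviations from the group means correlated at 0.13, -0.07 and -0.19 between samples of the same number, over 11962 genes. Between samples of different numbers the correlations ranged from -0.25 to 0.29. With 3 libraries per group, these values cannot exclude a pairing. With the replicate block, edgeR gave Klf15 a log2 fold change of 1.20 (adjusted p = 0.284), moved Klf2 from -0.70 to -0.27 and Klf4 from 0.42 to 0.20, called 0 members and 1 gene in all, and left 3 members and 1992 genes with an unadjusted p under 0.05. Depth limited Klf5 most, with as few as 24 reads in a library.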
